A study of Mus musculus with 12 samples.

Results

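The hair bundle is the sensory organelle of the hair cells of the inner ear, and 32 mouse genes whose products build it or carry its mechanotransduction current were followed here through 4 groups of cochlear samples. The genes were taken by symbol from a list drawn up with earlier results of these data known, and the choice itself applied no measured value. In all, 29 of the 32 were found as rows of their own among 23598 rows of the expression table. Of these 29 genes, 28 reached 0.5 FPKM in at least 3 samples and were tested. FPKM count sequenced fragments relative to the length of the transcript and the mapped total of the library, so levels of different genes can be set side by side. Ush1g, a scaffold at the upper end of the tip link, stayed between 0.169 and 0.404 FPKM in all 12 samples and was not tested. Myo15, Eps8l2 and Xirp2 stood only in rows merged with a neighbouring gene and are described apart from the others.

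RNA came from the apical and middle turns of the mouse cochlea at postnatal day 7, and each sample pooled 6 or more cochleae, per the labels. Of the 12 samples, 3 each are labelled b-catenin-OE, Notch1-KO, b-catenin-OE and Notch1-KO, and Control. The third of these carried both changes and is called the double group here. The promoter or Cre line behind each change, the alleles, any inducing agent and the genotype of the Control mice are not stated in the labels. Total RNA of a whole piece of cochlea was measured. For a rise or a fall, a change in the number of hair cells and a change in RNA per hair cell cannot be told apart. Nothing in the labels says that the 3 samples of a group were separate pools, and the p-values therefore describe the spread among these samples only, part of which may be technical.

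As background, a hair bundle is a staircase of actin-filled stereocilia, and fine tip links pull on transduction channels at the tips of the shorter rows when the bundle is deflected. TMC1 and TMC2 form the pore of that channel, TMIE, LHFPL5 and CIB2 are needed for it, and cadherin 23 and protocadherin 15 form the tip link. Notch signalling restrains supporting cells from becoming hair cells, and Wnt signalling through β-catenin acts on progenitors in the same epithelium.

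Depth was not given. In the 8 samples numbered 2 and 3, between 78.4% and 82.5% of low values of genes with 1 annotated transcript lay within 0.1 of a whole number of fragments, where chance gives 20% before fitting. The fitted steps correspond to 18400000 to 26600000 fragments if the values were not scaled further between libraries. For the other 4 samples, all numbered 1, it was only 28.7% to 41.7%, which left their depth unknown. Within each group samples 2 and 3 were close to each other, with a robust SD of their log2 difference of 0.0744 to 0.131, against 0.287 to 0.438 towards sample 1 (5889 rows of at least 10 FPKM). Their squared differences were 1.41 to 6.26 times counting noise at the fitted depths. This ratio cannot tell separate pools from separate libraries of the same pool. Samples 2 and 3 were kept as separate samples. Control sample 1 also stood apart in markers of other cells, where the summed level of 7 glial markers was 3148 FPKM, against 704 and 726 FPKM in Control samples 2 and 3. In the other groups sample 1 was nearer to samples 2 and 3 in this sum. It had 1823 against 1731 and 1730 FPKM in b-catenin-OE and 761 against 1091 and 1088 in Notch1-KO. In double samples it had 561 against 705 and 677 FPKM. Other sums set sample 1 of other groups apart, and that of Control again. In double sample 1 the 6 macrophage markers summed to 265 FPKM, against 91.2 and 90.4 in samples 2 and 3. Control sample 1 had 226 FPKM in this sum, against 68.7 and 72.7. In b-catenin-OE sample 1 the 9 neuron markers summed to 365 FPKM, against 201 and 199. For Control the neuron sum was 383 FPKM in sample 1, against 133 and 138. As a check of the labels, Notch1 averaged 23.3 FPKM in b-catenin-OE, 8.12 in Notch1-KO, 6.70 in double samples and 18.5 in Control. By limma's test with Benjamini-Hochberg adjustment it was lower in the double group (-1.39 ± 0.30, adjusted p = 0.0113), whereas Notch1-KO against Control (-1.11 ± 0.30, adjusted p = 0.16) did not pass. Ctnnb1, which encodes β-catenin, averaged 398 FPKM in b-catenin-OE, 380 in Notch1-KO, 454 in double samples and 392 in Control and passed in none of the 6 comparisons. A change within either transcript was not analysed here.

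The listed hair bundle genes stood highest in Notch1-KO. Of the 29 genes, 24 had their highest group mean in Notch1-KO, 2 in the double group, 1 in b-catenin-OE and 2 in Control. In 18 of them the double group lay between, below Notch1-KO and above both b-catenin-OE and Control. The summed level of the 29 genes was 413 to 490 FPKM in b-catenin-OE, 683 to 724 FPKM in Notch1-KO, 490 to 528 FPKM in double samples and 445 to 509 FPKM in Control. The Notch1-KO samples did not overlap the other 9 in this sum, whereas the b-catenin-OE, double and Control samples overlapped in pairs.

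**Figure D1:**
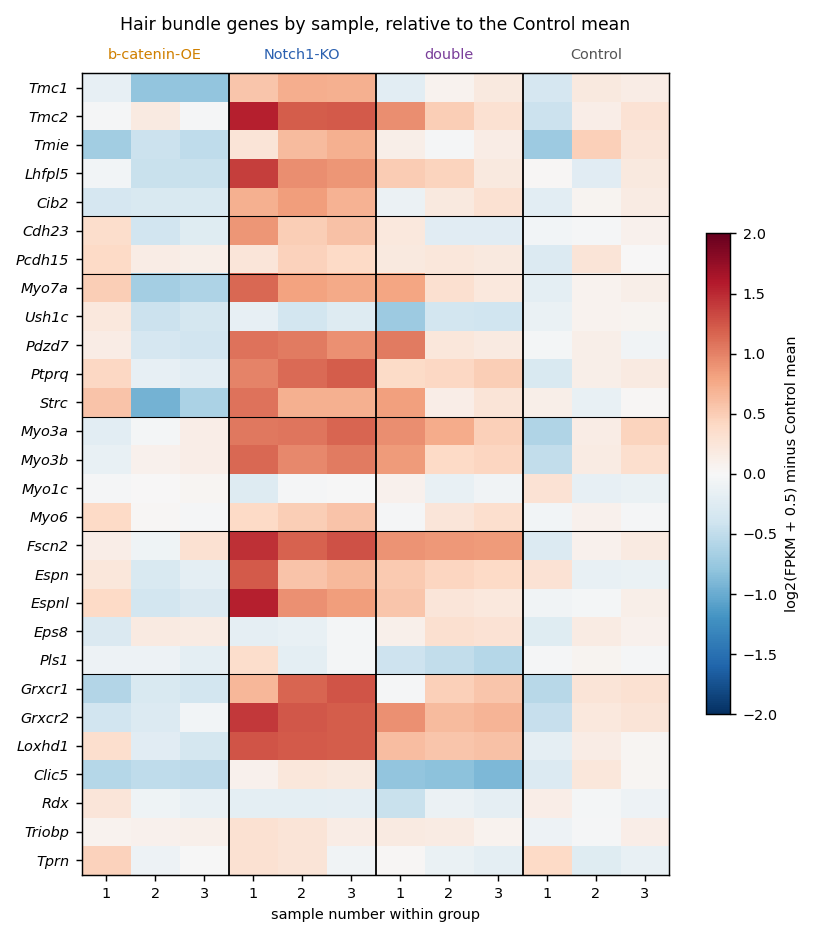
Level of each of the 28 tested hair bundle genes in each of the 12 samples, as log2(FPKM + 0.5) minus the mean of the Control samples, with genes in rows ordered by role (lines separate roles) and samples in columns by group. The Notch1-KO columns are red in most rows, the double columns are paler in the same rows, and Clic5 and Pls1 are blue in the double group.

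Differences were tested with limma on log2(FPKM + 0.5) over 14581 rows, and a gene is called higher or lower where its Benjamini-Hochberg adjusted p is under 0.05. In Notch1-KO against Control 8 of the 28 tested genes rose and 0 fell, where 0.857% of all tested rows passed, 0.535% higher and 0.322% lower. The 8 were Tmc2, Fscn2, Grxcr2, Loxhd1, Ptprq, Lhfpl5, Myo3b and Cib2. At an unadjusted p under 0.05, 20 of the 28 differed, against 8.27% of all rows. In 19 of the 28 genes all Notch1-KO samples lay above all Control samples, against 7.43% of all rows, and in 2, Ush1c and Rdx, all lay below, against 8.64%. The median log2 fold change of the 28 genes was 0.78, against -0.01 over all rows, and 24 of 28 were positive. With the sample number as a block, 4 more genes passed: Espn (0.82 ± 0.11, adjusted p = 0.0111), Espnl (1.10 ± 0.17, adjusted p = 0.0165), Grxcr1 (1.03 ± 0.11, adjusted p = 0.00474) and Pdzd7 (1.01 ± 0.18, adjusted p = 0.0288). The count of 8 was sensitive to single samples. It was 4, 2 and 1 without Notch1-KO sample 1, 2 or 3 and 3 without Control sample 2. With samples 2 and 3 of each group averaged, 0 of 28 passed limma's threshold and 17 had an unadjusted p under 0.05. With the other 2 groups left out of the fit, 0 of 28 passed and 19 had an unadjusted p under 0.05.

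In b-catenin-OE against Control 0 of the 28 genes passed limma's test, where 2.24% of all rows did (1.36% higher and 0.878% lower), and 3 had an unadjusted p under 0.05 (14% of all rows). All b-catenin-OE samples lay above all Control samples in 0 genes, against 7.89% of all rows, and below them in 3, Cib2, Pls1 and Clic5, against 8.63%. The median was -0.09. The count was 1 without b-catenin-OE sample 1 and 2 without Control sample 1. Clic5 alone passed with the sample number as a block (-0.53 ± 0.11, adjusted p = 0.0252). In the double group against Control 3 genes rose (Fscn2, Grxcr2 and Loxhd1), where 5.88% of all rows rose, and 2 fell (Clic5 and Pls1), where 6.64% fell. Together these are 5 of 28 genes against 12.5% of all rows, and at an unadjusted p under 0.05 they are 12 of 28 against 26.3%. The median was 0.29. All double samples lay above all Control samples in 12 genes and below them in 4, against 15.9% and 17.5% of all rows. With the block, Espn also rose (0.45 ± 0.11, adjusted p = 0.0175). The 5 calls became 3, 3 and 2 without double sample 1, 2 or 3 and 3 without Control sample 2.

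**Figure D2:**
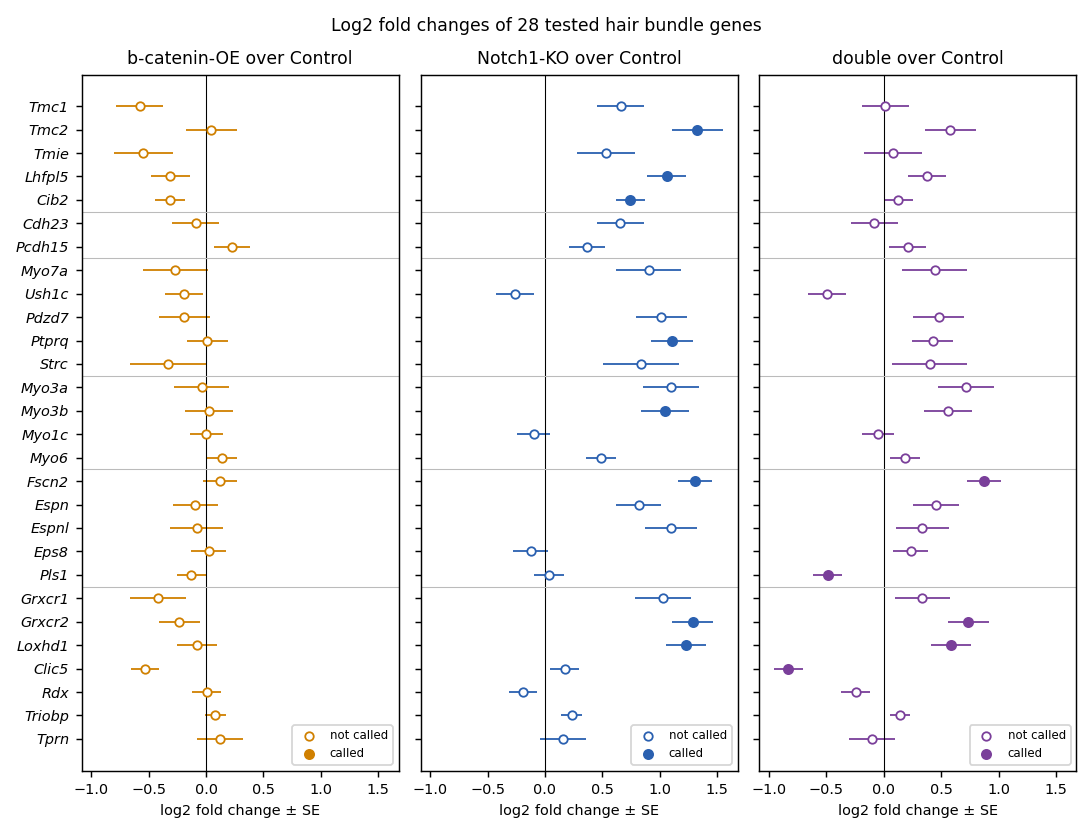
Log2 fold change, on the log2(FPKM + 0.5) scale, of the 28 tested hair bundle genes in b-catenin-OE, Notch1-KO and double samples, each over Control, with the standard error as the bar. Filled points passed limma's test (adjusted p under 0.05): 0 in b-catenin-OE, 8 in Notch1-KO and 5 in double samples.

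The double group was also set against each single change. Against Notch1-KO 7 of the 28 genes fell (Clic5, Cdh23, Ptprq, Lhfpl5, Loxhd1, Cib2 and Pls1) and 0 rose, where 10.1% of all rows passed, 5.21% lower and 4.91% higher. At an unadjusted p under 0.05, 17 differed, against 22.7%. All double samples lay below all Notch1-KO samples in 19 genes, against 18.1% of all rows, and above them in 1, Eps8, against 16.1%. The median was -0.48 and 26 of 28 were negative. With the block, Espnl (-0.76 ± 0.17, adjusted p = 0.0138) and Grxcr1 (-0.69 ± 0.11, adjusted p = 0.00307) also fell, and Eps8 rose (0.36 ± 0.10, adjusted p = 0.0395). The 7 calls became 3, 2 and 3 without Notch1-KO sample 1, 2 or 3, 2 without double sample 2 or 3, and 12 without Control sample 1. Against b-catenin-OE 2 genes rose, Grxcr2 and Fscn2, where 1.22% of all rows rose, and 0 of 28 fell, where 1.5% did and 2.72% passed in all. All double samples lay above all b-catenin-OE samples in 12 genes, against 12.6% of all rows, and below them in 2, Clic5 and Pls1, against 16.2%. At an unadjusted p under 0.05, 18 of the 28 differed in that comparison, against 18.2% of all rows, and the median was 0.49. The 2 calls became 7 without b-catenin-OE sample 1, 8 without Control sample 1, and 0 without b-catenin-OE sample 2, double sample 2 or double sample 3. Without double sample 1 both calls were lost, and Cib2 alone passed. These comparisons share samples with those against Control, so their values are not independent of each other.

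Whether both changes added on the log2 scale was tested as the difference between the effect of Notch1-KO with b-catenin-OE and without it. In this test 0 of 28 genes passed limma's threshold, where 0.0206% of all rows did, and 7 had an unadjusted p under 0.05, against 8.41% of all rows. The median difference was -0.34, and 25 of 28 were negative. The most negative were Tmc2 (-0.80 ± 0.32), Ptprq (-0.69 ± 0.25) and Espnl (-0.68 ± 0.32), with adjusted p of 0.505, 0.456 and 0.628. The tests did not show that the effect of Notch1-KO differed with and without b-catenin-OE in any of these genes.

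Promoters are shown for the genes that moved in either direction in Notch1-KO or the double group, with or without the block, and whose window holds no annotated exon (GENCODE M21) and is the only one of its gene. Each is the 250 bases before the RefSeq transcription start on build GRCm38.p6, of which mm10 is another name, written 5′ to 3′ on the strand of the gene. Capitals mark matches on either strand to the E-box CAGNTG, bound by factors such as ATOH1, to TGGGAA, the core letters of RBPJ, the DNA-binding partner of Notch, and to CTTTGA, the core letters of TCF/LEF, the partners of β-catenin. Fscn2, Grxcr1, Espnl and Pdzd7 are genes that rose in Notch1-KO, the last 3 of them with the block, and Cdh23 and Clic5 fell in the double group against Notch1-KO.
Fscn2, chr11:120361284-120361533, plus strand: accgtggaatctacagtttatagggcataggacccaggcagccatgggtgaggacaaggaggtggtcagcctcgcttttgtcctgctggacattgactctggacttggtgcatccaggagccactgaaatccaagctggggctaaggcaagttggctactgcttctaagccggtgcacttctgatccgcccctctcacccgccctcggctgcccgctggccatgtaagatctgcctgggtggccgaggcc
Grxcr1, chr5:68031585-68031834, plus strand: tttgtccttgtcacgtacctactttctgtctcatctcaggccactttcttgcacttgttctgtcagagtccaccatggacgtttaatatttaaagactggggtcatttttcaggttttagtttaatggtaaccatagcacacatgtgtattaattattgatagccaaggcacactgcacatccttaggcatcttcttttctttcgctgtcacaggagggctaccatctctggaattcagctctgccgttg
Espnl, chr1:91321825-91322074, plus strand: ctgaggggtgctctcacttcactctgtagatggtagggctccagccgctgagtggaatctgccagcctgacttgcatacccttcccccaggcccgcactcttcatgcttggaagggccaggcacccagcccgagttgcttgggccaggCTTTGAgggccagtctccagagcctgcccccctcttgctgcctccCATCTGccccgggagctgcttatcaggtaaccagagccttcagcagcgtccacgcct
Pdzd7, chr19:45045773-45046022, minus strand: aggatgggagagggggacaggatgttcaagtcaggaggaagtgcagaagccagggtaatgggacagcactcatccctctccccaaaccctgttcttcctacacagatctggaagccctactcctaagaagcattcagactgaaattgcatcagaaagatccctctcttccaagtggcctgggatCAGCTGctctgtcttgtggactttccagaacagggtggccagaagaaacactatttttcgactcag
Cdh23, chr10:60696491-60696740, minus strand: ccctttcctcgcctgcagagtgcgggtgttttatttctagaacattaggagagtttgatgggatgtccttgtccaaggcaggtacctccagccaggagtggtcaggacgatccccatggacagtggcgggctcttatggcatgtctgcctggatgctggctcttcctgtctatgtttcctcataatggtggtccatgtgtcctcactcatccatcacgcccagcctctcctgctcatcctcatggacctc
Clic5, chr17:44188322-44188571, plus strand: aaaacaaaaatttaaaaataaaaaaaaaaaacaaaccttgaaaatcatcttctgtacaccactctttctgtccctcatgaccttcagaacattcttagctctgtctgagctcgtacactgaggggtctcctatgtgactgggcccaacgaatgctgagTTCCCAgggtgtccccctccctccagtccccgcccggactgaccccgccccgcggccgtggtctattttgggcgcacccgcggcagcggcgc

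Of these 6 windows, Espnl and Pdzd7 hold 1 E-box each, Espnl also 1 TCF/LEF match, Clic5 1 RBPJ match, and Fscn2, Grxcr1 and Cdh23 hold none of the letters searched. Over the 33 windows of the 26 listed genes matched in RefSeq's table, 45.5% held the E-box letters, against 44.8% of 32851 windows of all genes. The RBPJ letters were in 21.2% against 21.6%, and the TCF/LEF letters in 9.09% against 13.8%. No base lay in matches to more than 1 of the 3 motifs. A match describes letters and says nothing of binding.

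In the transduction channel complex 3 of 5 genes rose in Notch1-KO, where 0.535% of all rows rose. Of these 3, 2 fell in the double group against Notch1-KO, where 5.21% of all rows fell. Tmc2 (chromosome 2, 130195194 to 130266228, mm10), which in mouse hair cells precedes Tmc1 during development, measured 0.624, 0.793 and 0.620 FPKM in b-catenin-OE, 2.83, 2.14 and 2.17 in Notch1-KO, 1.68, 1.10 and 0.910 in double samples and 0.346, 0.751 and 0.896 in Control. Every Notch1-KO sample was above every other sample. The rise over Control was 1.33 ± 0.22 (limma, adjusted p = 0.0204), and every double sample also lay above every Control sample without passing (0.58 ± 0.22, adjusted p = 0.12). Tmc1 (chromosome 19, 20783313 to 20954415), the pore gene of mature hair cells, measured 4.50, 2.72 and 2.74 FPKM in b-catenin-OE, 7.70, 8.69 and 8.60 in Notch1-KO, 4.30, 5.35 and 5.86 in double samples and 3.91, 5.88 and 5.68 in Control. Its Notch1-KO samples were again the highest, by 0.66 ± 0.20 (adjusted p = 0.247) over Control, and its double mean of 5.17 FPKM stood beside a Control mean of 5.16 FPKM. In b-catenin-OE, samples 2 and 3 of Tmc1 were below all Control samples and sample 1 was not. The ratio of the 2 pore genes was not tested.

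Lhfpl5 (chromosome 17, 28575587 to 28583916), which joins the tip link to the channel, measured 20.9, 15.8 and 15.8 FPKM in b-catenin-OE, 57.1, 41.5 and 40.3 in Notch1-KO, 30.9, 29.6 and 24.8 in double samples and 22, 18.5 and 25 in Control. It rose in Notch1-KO by 1.06 ± 0.17 (adjusted p = 0.0172) and fell in the double group against Notch1-KO by 0.68 (SE 0.17, adjusted p = 0.0246). The double and Control samples overlapped. Cib2 (chromosome 9, 54545352 to 54560079), a calcium-binding subunit of the complex, had the highest level of all 29 genes, with 86.3, 87.8 and 87.8 FPKM in b-catenin-OE, 177, 195 and 176 in Notch1-KO, 100.2, 124 and 134 in double samples and 93.9, 113 and 121 in Control. It rose in Notch1-KO by 0.74 ± 0.13 (adjusted p = 0.0233) and fell in the double group against Notch1-KO by 0.62 (SE 0.13, adjusted p = 0.0101). Tmie (chromosome 9, 110857967 to 110900530), a small membrane protein of the complex, measured 3.79, 4.67 and 4.39 FPKM in b-catenin-OE, 7.83, 10.3 and 10.9 in Notch1-KO, 7.08, 6.32 and 7.19 in double samples and 3.73, 9.16 and 7.78 in Control. Control sample 1 alone stood with the b-catenin-OE samples, and Notch1-KO overlapped Control (0.53 ± 0.26, adjusted p = 0.645). The Tmie locus also holds Als2cl and Prss50.

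Single samples mattered for these calls. For Tmc2 in Notch1-KO the call was lost without any 1 of the Notch1-KO samples or without Control sample 2, with an adjusted p of at most 0.0853. For Lhfpl5 it was lost without the same 4 samples (at most 0.0684), and for Cib2 without those or Control sample 1 (at most 0.114). In the double group against Notch1-KO, Cib2 lost its call without Notch1-KO sample 2 (adjusted p = 0.0532), and Lhfpl5 without Notch1-KO sample 1 or 2 or double sample 2 or 3 (at most 0.104).

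**Figure D3:**
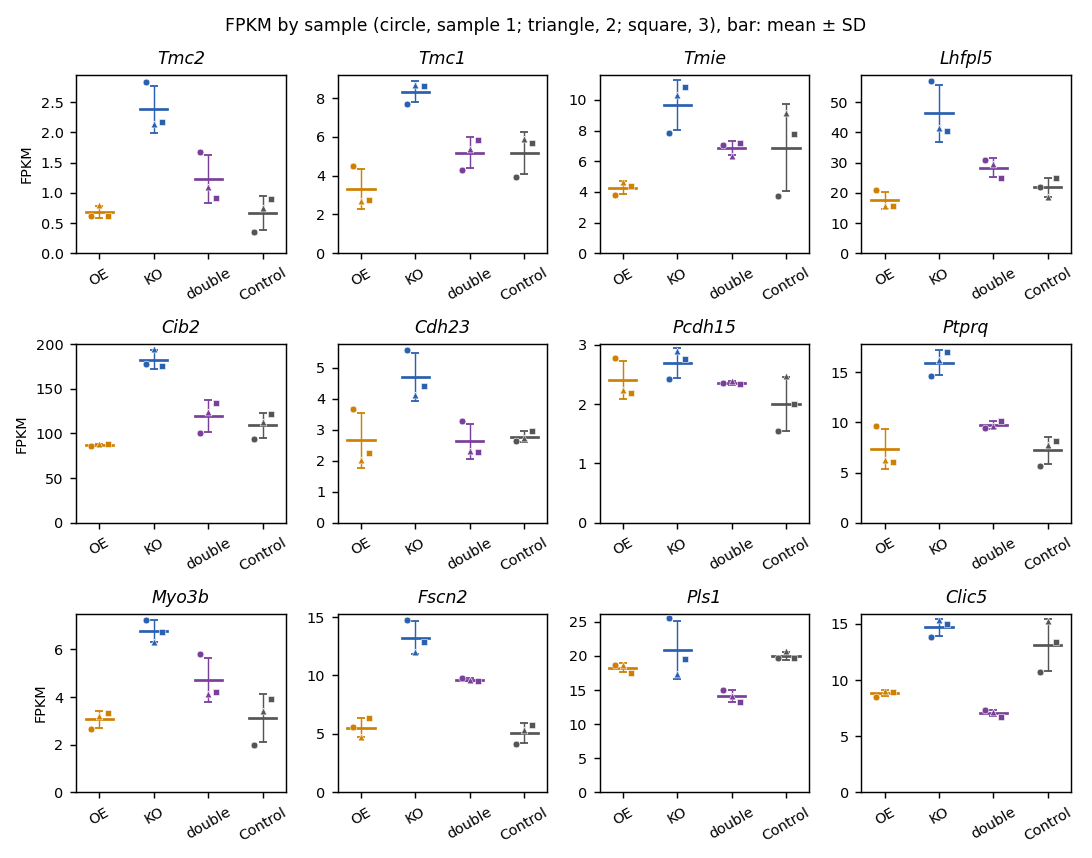
FPKM of 12 hair bundle genes in each sample of b-catenin-OE (OE), Notch1-KO (KO), the double group and Control, with the mean and SD (n = 3) of each group. Tmc2, Lhfpl5, Cib2, Ptprq, Myo3b and Fscn2 are highest in all Notch1-KO samples, whereas Clic5 and Pls1 are lowest in all double samples.

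The 2 tip link cadherins did not pass over Control. Cdh23 (chromosome 10, 60277628 to 60696490), the upper part of the link, measured 3.68, 2.03 and 2.26 FPKM in b-catenin-OE, 5.57, 4.12 and 4.42 in Notch1-KO, 3.28, 2.30 and 2.30 in double samples and 2.65, 2.73 and 2.96 in Control. All Notch1-KO samples were above all other samples, by 0.66 ± 0.20 over Control (limma, adjusted p = 0.255). In the double group it was lower than in Notch1-KO by 0.74 (a log2 fold change of -0.74 ± 0.20, adjusted p = 0.0417) and near Control (-0.08 ± 0.20, adjusted p = 0.844). The call against Notch1-KO was kept in 4 of 12 fits that left out 1 sample. It was lost without any 1 of the Notch1-KO samples, double sample 2 or 3, Control sample 2 or 3 or b-catenin-OE sample 3 (adjusted p at most 0.148), with no filter on low values (0.0669), with quantile normalization (0.08) and with median centring (0.0553). Its locus also holds Psap, Vsir and Gm17455. Pcdh15 (chromosome 10, 73483860 to 74649738), the lower part of the link, measured 2.77, 2.24 and 2.19 FPKM in b-catenin-OE, 2.42, 2.90 and 2.76 in Notch1-KO, 2.35, 2.39 and 2.33 in double samples and 1.55, 2.46 and 1.99 in Control. Its groups overlapped except that all double samples were below all Notch1-KO samples, and it passed in none of the 6 comparisons (0.36 ± 0.16 in Notch1-KO, adjusted p = 0.571).

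Among the anchors of the tip link and the other links between stereocilia, 1 of 5 tested genes rose in Notch1-KO, where 0.535% of all rows rose. In the double group against Notch1-KO 1 fell, where 5.21% of all rows fell, and both times it was Ptprq. Ptprq (chromosome 10, 107512889 to 107720160), a receptor phosphatase of the shaft connectors, measured 9.66, 6.31 and 6.06 FPKM in b-catenin-OE, 14.6, 16.2 and 17.1 in Notch1-KO, 9.40, 9.62 and 10.2 in double samples and 5.68, 7.76 and 8.18 in Control. The rise in Notch1-KO over Control was 1.11 ± 0.18 (limma, adjusted p = 0.0175) and the difference of the double group from Notch1-KO was -0.68 ± 0.18 (adjusted p = 0.0321). The rise was lost without Notch1-KO sample 2 or 3 or Control sample 2 (at most 0.0887), and the fall without Notch1-KO sample 2 or 3 or any 1 of the double samples (at most 0.123). Myo7a, the motor that anchors the tip link, averaged 3.43 ± 1.95 FPKM in b-catenin-OE, 7.80 ± 1.27 in Notch1-KO, 5.57 ± 1.36 in double samples and 3.92 ± 0.494 in Control (SD, n = 3 each). Pdzd7, an organiser of the ankle links, averaged 2.61 ± 0.651, 6.59 ± 0.443, 4.57 ± 1.81 and 3.01 ± 0.260 FPKM in b-catenin-OE, Notch1-KO, the double group and Control. In both genes every Notch1-KO sample exceeded every Control sample, with 0.91 ± 0.28 for Myo7a (adjusted p = 0.256) and 1.01 ± 0.22 for Pdzd7 (adjusted p = 0.0625). The Myo7a locus also holds Gdpd4, and the Pdzd7 locus Lzts2. Strc, which encodes the top connector protein stereocilin, averaged 4.39 ± 2.91, 9.45 ± 1.59, 6.95 ± 1.98 and 5.04 ± 0.499 FPKM in the same order, and its locus also holds Ckmt1. Ush1c, the scaffold harmonin, averaged 45.4 ± 11.6 FPKM in b-catenin-OE, 42.4 ± 3.09 in Notch1-KO, 36.1 ± 4.85 in double samples and 50.9 ± 4.01 in Control, and every double and Notch1-KO sample was below every Control sample (adjusted p = 0.0723 for the double group and 0.796 for Notch1-KO).

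Of the 4 other unconventional myosins, the class III motors had the highest log2 fold changes over Control in Notch1-KO and in double samples. Myo3b (chromosome 2, 70038918 to 70429342) measured 2.67, 3.21 and 3.34 FPKM in b-catenin-OE, 7.24, 6.33 and 6.73 in Notch1-KO, 5.80, 4.14 and 4.21 in double samples and 1.99, 3.42 and 3.92 in Control. In this row all Notch1-KO samples were above all double samples, and these above all b-catenin-OE and Control samples. A second, lower Myo3b row changes that order: with both rows summed the double samples had 6.74, 6.69 and 6.35 FPKM, against 7.24, 6.33 and 6.73 in Notch1-KO, and overlapped them. Summed, Myo3b rose in the double group over Control (1.02 ± 0.19, limma, adjusted p = 0.00466) and over b-catenin-OE (0.92 ± 0.19, adjusted p = 0.0277), whereas neither passed in the higher row alone. In that row it rose in Notch1-KO by 1.05 ± 0.21 (limma, adjusted p = 0.0446), a call kept in only 2 of 12 fits that left out 1 sample, those without b-catenin-OE sample 1 or double sample 1, with an adjusted p of up to 0.155 in the others. It was also lost when no filter on low values was used (adjusted p = 0.0695). Its partner Myo3a averaged 0.995 ± 0.183 FPKM in b-catenin-OE, 2.77 ± 0.135 in Notch1-KO, 2.03 ± 0.402 in double samples and 1.09 ± 0.541 in Control (SD, n = 3 each), in the same order of Notch1-KO over double over Control samples without overlap (1.10 ± 0.24 in Notch1-KO, adjusted p = 0.0628). Myo6, a motor at the bundle base, averaged 52.4 ± 8.98, 66.4 ± 3.88, 54.2 ± 6.76 and 47.3 ± 2.29 FPKM in b-catenin-OE, Notch1-KO, the double group and Control, with all Notch1-KO samples but not all double samples above Control (0.49 ± 0.13 in Notch1-KO, adjusted p = 0.151). Myo1c, which is found in many cell types, lay between 5.10 and 7.63 FPKM in all 12 samples, and its groups overlapped.

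In the actin core 1 of 5 genes rose in Notch1-KO, where 0.535% of all rows rose. Of the same 5, 1 rose and 1 fell in the double group over Control, where 5.88% and 6.64% of all rows did. Fscn2 (chromosome 11, 120360235 to 120437738), fascin 2, measured 5.59, 4.71 and 6.33 FPKM in b-catenin-OE, 14.8, 12 and 12.9 in Notch1-KO, 9.81, 9.63 and 9.50 in double samples and 4.10, 5.37 and 5.78 in Control. All Notch1-KO samples were above all double samples, which were above all b-catenin-OE and Control samples. It rose in Notch1-KO by 1.30 ± 0.15 (limma, adjusted p = 0.00343), in the double group by 0.87 ± 0.15 over Control (adjusted p = 0.00247) and by 0.76 ± 0.15 over b-catenin-OE (adjusted p = 0.0221). The first 2 calls held without any 1 of the 12 samples. The third was lost without b-catenin-OE sample 2 or any 1 of the double samples (at most 0.0872). Its locus also holds Faap100 and Nploc4. Pls1 (chromosome 9, 95752562 to 95845279), plastin 1, measured 18.7, 18.7 and 17.5 FPKM in b-catenin-OE, 25.6, 17.4 and 19.5 in Notch1-KO, 15.0, 14.1 and 13.3 in double samples and 19.7, 20.7 and 19.7 in Control. Every double sample was below every other sample. Neither b-catenin-OE nor Notch1-KO passed over Control, although all b-catenin-OE samples lay below all Control samples. It fell in the double group by 0.49 (SE 0.13) against Control (adjusted p = 0.0282) and by 0.53 (SE 0.13) against Notch1-KO (adjusted p = 0.0232). The first fall was lost without double sample 2 or 3 or Control sample 2 or 3 (at most 0.102), and the second without Notch1-KO sample 1 or 3 or double sample 2 or 3 (at most 0.0927).

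Espn, which encodes the actin-bundling protein espin, averaged 11.2 ± 2.38 FPKM in b-catenin-OE, 21.6 ± 5.86 in Notch1-KO, 16.3 ± 0.750 in double samples and 11.9 ± 2.21 in Control (SD, n = 3 each). Its relative Espnl averaged 9.19 ± 3.04, 21.3 ± 6.32, 12.2 ± 1.76 and 9.48 ± 0.744 FPKM in b-catenin-OE, Notch1-KO, the double group and Control. In both genes Notch1-KO sample 1 was the highest, and all Notch1-KO and all double samples were above all Control samples. Without the block the differences in Notch1-KO did not pass (0.82 ± 0.20, adjusted p = 0.0956, for Espn and 1.10 ± 0.23, adjusted p = 0.0539, for Espnl). The Espn locus also holds Tnfrsf25. Eps8, a regulator of stereocilia length at their tips, averaged 9.94 ± 1.8, 8.83 ± 0.473, 11.5 ± 0.951 and 9.74 ± 1.49 FPKM in b-catenin-OE, Notch1-KO, the double group and Control. It was the gene in which all double samples exceeded all Notch1-KO samples.

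Of 7 genes of the bundle base and other parts, 2 rose in Notch1-KO, where 0.535% of all rows rose. Grxcr2 (chromosome 18, 41985313 to 41999220), a glutaredoxin-like protein of the stereocilia base, measured 11.5, 12.5 and 14.5 FPKM in b-catenin-OE, 41.2, 36.4 and 35.7 in Notch1-KO, 28.8, 23.6 and 24.4 in double samples and 10.8, 17.6 and 18.1 in Control. The Notch1-KO, double and Control samples formed 3 ranges without overlap, highest in Notch1-KO. It rose by 1.29 ± 0.18 in Notch1-KO over Control (limma, adjusted p = 0.0106), by 0.74 ± 0.18 in the double group over Control (adjusted p = 0.0198) and by 0.97 ± 0.18 in the double group over b-catenin-OE (adjusted p = 0.0168). The calls were lost without Notch1-KO sample 3 in the first (0.0549), without double sample 1 or 3 in the second (at most 0.0706) and without b-catenin-OE sample 2 or any 1 of the double samples in the third (at most 0.0614). Its relative Grxcr1 averaged 10.7 ± 1.14 FPKM in b-catenin-OE, 30.4 ± 6.29 in Notch1-KO, 18.6 ± 3.84 in double samples and 15.0 ± 4.60 in Control, and all Notch1-KO samples were above all others.

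Loxhd1 (chromosome 18, 77281466 to 77444754), a protein of the stereocilia that hearing requires, measured 2.90, 1.8 and 1.63 FPKM in b-catenin-OE, 5.97, 5.79 and 5.74 in Notch1-KO, 3.65, 3.47 and 3.56 in double samples and 1.88, 2.51 and 2.26 in Control. The Notch1-KO and double samples each lay in a narrow range above the rest. It rose in Notch1-KO by 1.23 ± 0.17 (limma, adjusted p = 0.0109), rose in the double group by 0.59 ± 0.17 (adjusted p = 0.0488) and fell in the double group against Notch1-KO by 0.64 (SE 0.17, adjusted p = 0.0382). The first call was lost without Notch1-KO sample 2 or 3 (at most 0.0558). The second was kept in 2 of 12 fits that left out 1 sample, those without b-catenin-OE sample 1 or 3 (at most 0.12 in the others), and was lost with quantile normalization (0.0575), median centring (0.0541), a pseudocount of 0.1 (0.0523), no filter on low values (0.0752) and only the groups compared (0.0542). The third was lost without any 1 of the Notch1-KO or double samples or without Control sample 3 (at most 0.122), with quantile normalization (0.0753), with a pseudocount of 0.1 (0.0511) and with no filter on low values (0.0625).

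Clic5 (chromosome 17, 44188572 to 44280168), a chloride intracellular channel relative at the bundle base, had the most negative log2 fold change of the 28 genes in the double group over Control and against Notch1-KO. It measured 8.53, 9.02 and 8.90 FPKM in b-catenin-OE, 13.9, 15.3 and 15.0 in Notch1-KO, 7.31, 7.16 and 6.74 in double samples and 10.7, 15.2 and 13.4 in Control. Every double sample was below every b-catenin-OE sample, and these were below every Notch1-KO and Control sample. It fell in the double group by 0.83 (SE 0.13) against Control (limma, adjusted p = 0.00124) and by 1.01 (SE 0.13) against Notch1-KO (adjusted p = 0.000451), and both calls held without any 1 of the 12 samples. In b-catenin-OE it was lower without passing (-0.53 ± 0.13, adjusted p = 0.0533), and it passed with the block given above, with quantile normalization and with median centring. Rdx, Triobp and Tprn, which encode radixin, an actin bundler of the rootlets and taperin at the stereocilia base, ranged from 40.9 to 66.0 FPKM, 38.8 to 51.6 FPKM and 5.41 to 9.21 FPKM over the 12 samples. None of these 3 passed in any comparison, and their log2 fold changes over Control lay between -0.25 (Rdx in the double group) and 0.23 (Triobp in Notch1-KO).

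The 3 listed genes in merged rows were read with their neighbours, so their values belong to both genes. The row of Xirp2, an actin-binding protein of stereocilia and muscle, and Gm1322 measured 5.19, 4.56 and 4.34 FPKM in b-catenin-OE, 13.7, 14.5 and 15.3 in Notch1-KO, 6.58, 8.02 and 7.89 in double samples and 4.02, 6.45 and 5.23 in Control. It rose in Notch1-KO by 1.41 ± 0.16 (limma, adjusted p = 0.00343) and was lower in the double group than in Notch1-KO (-0.91 ± 0.16, adjusted p = 0.0035). Of 8 skeletal muscle markers the summed level was 2.66 to 5.60 FPKM in Notch1-KO and 1.63 to 3.94 FPKM in b-catenin-OE. It was 1.96 to 2.70 FPKM in double samples and 1.68 to 3.97 FPKM in Control. Ckm and Myog were at 0 in all Notch1-KO samples, and Myh8 was at 0 in all b-catenin-OE samples. The part of muscle in the Xirp2 row was not tested. The row of Myo15, the motor that carries Eps8 to the tips, and Drg2 ranged from 26.4 to 34.2 FPKM, and that of Eps8l2 and Tmem80 from 13.3 to 25.8 FPKM, and neither row passed in any comparison.

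The pattern of the hair bundle genes differed between samples numbered 1 and samples numbered 2 and 3 in b-catenin-OE and was alike in sign in Notch1-KO. Within the samples numbered 1 the median log2 difference of the 28 genes from Control was 0.18 in b-catenin-OE, 0.96 in Notch1-KO and 0.48 in double samples. Within samples 2 and 3 it was -0.34, 0.67 and 0.17, lower in each group. Every difference within the samples numbered 1 is taken from Control sample 1 alone, and the part of that sample in the shift was not tested. In b-catenin-OE 20 of 28 genes were positive in the sample numbered 1 and 4 in samples 2 and 3. In Notch1-KO 24 of 28 were positive both times, and in the double group 22 and 21. In the double group against Notch1-KO the medians were -0.54 and -0.52, and 2 of 28 genes were positive both times. All 8 genes that rose in Notch1-KO were positive within both sets, by 0.91 to 1.98 in the samples numbered 1 and 0.66 to 1.12 in samples 2 and 3. In the double group over Control the 2 differences were 1.16 and 0.73 for Fscn2, 1.38 and 0.42 for Grxcr2, 0.80 and 0.48 for Loxhd1, -0.52 and -0.99 for Clic5 and -0.39 and -0.54 for Pls1. The 7 genes that fell against Notch1-KO were negative within both sets. All these genes were called from the same samples, so their agreement in sign follows largely from the call and is not replication. With 1 sample a group the samples numbered 1 allow no test.

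**Figure D4:**
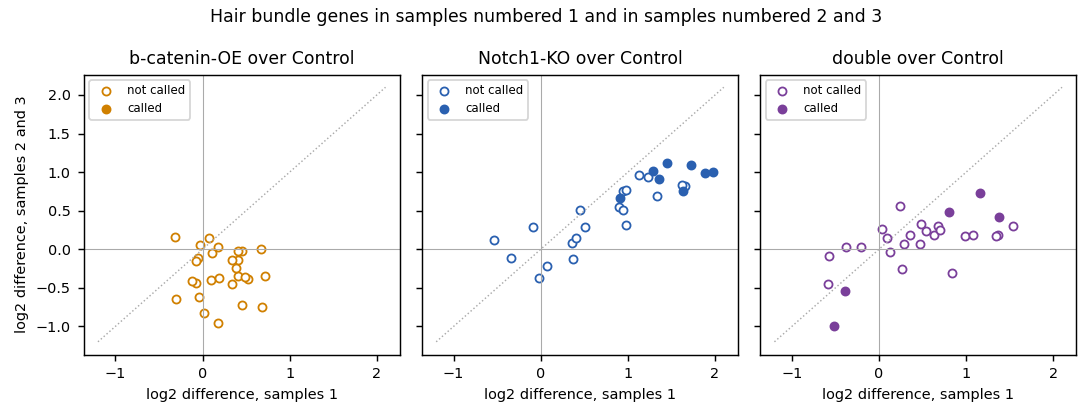
Log2 difference from Control of the 28 tested hair bundle genes within the samples numbered 1 (horizontal axis) and within samples 2 and 3 (vertical axis) in b-catenin-OE, Notch1-KO and double samples, with equality as a dotted line and genes that passed limma's test filled. In b-catenin-OE most points are right of and below 0, with 20 of 28 positive on the horizontal and 4 on the vertical axis, whereas in Notch1-KO 24 of 28 are positive on each.

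Of 22 further bundle genes, 0 passed limma's test in Notch1-KO over Control, and 9 had an unadjusted p under 0.05, against 8.27% of all rows. Their median log2 fold change was 0.30, 14 were positive and 8 negative, and in 8 all Notch1-KO samples lay above all Control samples, against 7.43% of all rows. Their log2 fold changes ranged from -0.58 to 1.07. The 22 also include the actin genes Actb and Actg1, which averaged 416 and 989 FPKM in Control. The listed genes are thus a selection among bundle genes, and the difference between both sets was not tested. Of 15 hair cell genes outside the bundle, 3 rose in Notch1-KO, where 0.535% of all rows rose, and 0 fell, with a median of 1.01: the small GTPase Rasd2 (1.38 ± 0.17, limma, adjusted p = 0.00776), the transcription factor Gfi1 (1.04 ± 0.14, adjusted p = 0.0102) and the synaptic protein Otof (1.02 ± 0.18, adjusted p = 0.0234). In the double group against Notch1-KO, 3 of the 15 fell (Gfi1, Otof and Strip2), where 5.21% of all rows fell, and the median was -0.56. In b-catenin-OE against Control 0 of the 15 passed, 0 had an unadjusted p under 0.05, and the median was -0.22. Both lists were chosen with earlier results of these samples known, so their counts are descriptions.

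Markers of other cells moved with some of these groups. The summed level of 14 supporting cell markers was 1523 to 1736 FPKM in b-catenin-OE and 1349 to 1616 in Notch1-KO. It was 921 to 1194 in double samples and 1759 to 2003 in Control, with no marker at 0 in all 3 samples of a group. Over Control, 3 of the 14 rose and 3 fell in b-catenin-OE, where 1.36% of all rows rose and 0.878% fell. In Notch1-KO 0 rose and 1 fell, where 0.535% and 0.322% did. In double samples 2 rose and 7 fell, where 5.88% and 6.64% did. Among them Sox2, a marker of supporting cells, was lower in the double group (-0.81 ± 0.19, limma, adjusted p = 0.015). The 9 neuron markers summed to 199 to 365 FPKM in b-catenin-OE and 114 to 170 in Notch1-KO. They summed to 73.4 to 109.7 in double samples and 133 to 383 in Control, with no marker at 0 in all 3 samples of a group. Markers of the stria vascularis, the ion-transporting epithelium of the cochlear wall, also moved with Notch1-KO. The 6 of them summed to 113 to 167 FPKM in b-catenin-OE and 167 to 228 in Notch1-KO. They summed to 86.1 to 123 in double samples and 94.2 to 130.1 in Control, with no marker at 0 in all 3 samples of a group. In 4 of the 5 tested all Notch1-KO samples lay above all Control samples, against 7.43% of all rows, with a median log2 fold change of 0.96. However, 0 of the 5 passed limma's test, with 4 at an unadjusted p under 0.05, against 8.27% of all rows. Against Notch1-KO all double samples lay below in 5 of 5, where 18.1% of all rows did. Of the 5, 3 fell, where 5.21% of all rows fell, and the median was -0.97. Of 11 marker lists of other cells, the stria list was the one whose sum in Notch1-KO lay wholly above Control, and the supporting cell list the one wholly below. The part of these markers in the values of the hair bundle genes was not tested.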

How the data were processed

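FPKM values per gene were deposited by the authors as 1 table. Per the submitters' processing notes, the tools included Cufflinks 2.2.1 with Cuffdiff, TopHat2 2.0.10 with Bowtie2 2.2.1, Trimmomatic 0.23 and CASAVA 1.8, on build mm10; the annotation, filters and any scaling between libraries could not be learned from these sources. The table's fold changes were not used. Groups and sample numbers come from the titles. Starts are given 1 higher than in the table, since 8440 of 21546 then equal RefSeq's and 476 otherwise.

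All 12 samples entered 1 limma 3.58.1 model (R 4.3.3) of 4 group means on log2(FPKM + 0.5), with a trended empirical Bayes spread, two-sided tests and Benjamini-Hochberg adjustment over 14581 rows at 0.5 FPKM or more in 3 samples. This scale understates changes of low genes. The fit was tested on simulated data with independent samples. That simulation held no offset of samples 1, so it cannot show how such an offset affects the calls. Of 514 symbols in several rows (Myo3b and Rdx among the listed genes) the row with the highest mean was used. FPKM allow no count test. Samples with the same number deviated together in each comparison except the double group over b-catenin-OE. Their correlation was above 0.1 for all 3 numbers elsewhere and 0.0635 for number 2 there. The number was therefore taken as a block in the others, and the blocked values are given. Samples 1 stood apart from samples 2 and 3 in every group. These correlations thus cannot tell a pairing by number from an offset shared by samples 1. The listed genes and all marker lists were chosen with earlier results of these data known. Some genes of those marker lists are not reported here and were left out, so the lists' counts and medians describe the shortened lists only. Values are given in every sample for genes that passed in any comparison and for the transduction complex and tip link, and as means or ranges for the rest. Other settings tried are in the closing section.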

Additional observations from a re-analysis of the deposited data

How the results depend on the processing

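No call of a hair bundle gene changed direction under any of 25 other settings, 423 repeats of the calls stayed past the threshold and 127 did not. Counts are given below in the order b-catenin-OE, Notch1-KO and double over Control, double over b-catenin-OE, double over Notch1-KO and, where a sixth is given, the test of additivity, first over all rows and then over the 28 hair bundle genes. With a replicate block for the sample number they were 635, 237, 2934, 826, 2290 and 53 rows, and 1, 12, 6, 6 and 10 hair bundle genes. For the double group over b-catenin-OE and for additivity the correlation rule for using a block was not met. With a batch term for sample 1 they were 943, 370, 3569, 1371, 2814 and 177 rows, and 2, 14, 10, 8 and 14 hair bundle genes. With samples 2 and 3 only they were 5685, 1735, 6134, 4281, 6189 and 2810 rows, and 15, 19, 11, 19, 22 and 7 hair bundle genes. With samples 2 and 3 averaged they were 10, 0, 259, 0, 175 and 0 rows, and 0 hair bundle genes in all 6, with 1, 17, 8, 4, 8 and 0 at an unadjusted p under 0.05. With only the groups compared, b-catenin-OE over Control had 65 rows, Notch1-KO over Control 8 rows and 0 hair bundle genes, double over Control 3 hair bundle genes, and double over b-catenin-OE 228 rows and 1 hair bundle gene. In b-catenin-OE over Control 1 hair bundle gene passed with quantile normalization and 1 with median centring. The rows past the threshold for additivity numbered 1 with a pseudocount of 0.1, 7 with no filter on low values and 6 with quantile normalization. Leaving out 1 sample gave 126 to 901, 14 to 213, 1128 to 2498, 113 to 1023, 790 to 2060 and 0 to 67 rows, and 0 to 2, 1 to 12, 2 to 6, 0 to 8, 2 to 12 and 0 hair bundle genes. Where that left 2 samples in a group, they were assumed to vary like the other groups. Apart from settings that leave out or merge samples, the cause of these shifts was not tested. The median over all rows stayed within 0.0494 of 0 in the fits that left out 1 sample and within 0.0238 in the other settings. Depth is unknown for the samples numbered 1, so counting error of low genes such as Tmc2 could not be given there.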

Other observations

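Myo3b stood in a second, lower row of the table that is not part of the comparisons above. It was listed at 0 in all Notch1-KO and all Control samples, at 0.153, 0.173 and 0.209 FPKM in b-catenin-OE and at 0.936, 2.55 and 2.13 FPKM in the double group. The main Myo3b row was lower in the double group than in Notch1-KO in every sample, so the rows differed in which group was highest. An exact 0 can be a failed estimate, and which transcript the lower row stands for is not given in the file.

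Atoh1, the transcription factor that starts hair cell differentiation, measured 0.395, 0.837 and 0.701 FPKM in b-catenin-OE, 5.03, 2.22 and 2.60 in Notch1-KO, 2.45, 1.04 and 0.837 in double samples and 0.654, 0.823 and 0.947 in Control. Pou4f3, a transcription factor of hair cells that keeps them alive, measured 24.6, 13.2 and 13.6 FPKM in b-catenin-OE, 53.8, 38.9 and 37.6 in Notch1-KO, 33.7, 28.8 and 27.9 in double samples and 15.8, 22.2 and 21.7 in Control. In both genes all Notch1-KO samples were above all Control samples, but neither passed limma's test over Control. Such a separation was found in 12 of the 15 hair cell genes outside the bundle and in 7.43% of all rows. Of the 15, 1 had a negative log2 fold change in Notch1-KO over Control, Ocm (-0.34). Ocm measured 169, 184 and 160 FPKM in b-catenin-OE and 144, 373 and 386 in Notch1-KO. It measured 84.0, 266 and 289 FPKM in double samples and 246, 453 and 381 in Control. Slc26a5, which encodes the outer hair cell motor prestin, measured 23.5, 11.9 and 12 FPKM in b-catenin-OE, 21.6, 22.9 and 23.6 in Notch1-KO, 9.87, 16.2 and 16.4 in double samples and 16.3, 15.6 and 15.2 in Control.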
